A study of Mus musculus with 6 samples.

Results

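The heart connexins Gja1, Gja3, Gja4, Gja5, Gjc1 and Gjd3 were taken by gene symbol from a count table of 44200 gene models, and all 6 were found. RNA of heart tissue from male C57BL/6 mice on normal chow was sequenced at 2 months of age (young, 3 libraries) and at 22 months (old, 3 libraries). No genotype or treatment separated the groups, so the question addressed here is how connexin transcripts differ between young and old hearts. The labels do not say that each library came from a separate mouse, so p-values measure the spread between these libraries, which may be technical. The labels give the tissue as heart but their extraction text refers to NRVMs, a name not explained there, and they do not say which chambers were sampled.

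Connexins are membrane proteins that assemble into hexamers, and a hexamer docks with one in the next cell to form a channel for ions and small molecules. Gap junctions made of such channels lie mainly in the intercalated discs between cardiomyocytes and carry the action potential from cell to cell. Gja1 encodes Cx43, the main connexin of working ventricular muscle, Gja5 encodes Cx40 of atrium, fast conduction system and arterial endothelium, and Gjc1 encodes Cx45 of nodal tissue. Gja4 encodes Cx37 of arterial endothelium, Gja3 encodes a connexin best known from the lens, and Gjd3 encodes a connexin of the mouse conduction system.

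Libraries held 13673856 to 15583364 reads assigned to genes. Levels are given as CPM, a gene's reads relative to a library's reads in the genes that passed a filter on low counts. These totals were TMM-scaled, with a factor per library that corrects for differences in RNA make-up. Of 14413 genes that passed the filter on low counts, 2174 (15.1%) were called at a Benjamini-Hochberg adjusted p under 0.05 in edgeR's quasi-likelihood test, 1257 (8.72%) higher and 917 (6.36%) lower in old hearts, and the median log2 fold change was 0.02. Old 1 stood apart from the other old libraries on the first principal component (17.2, against 49.4 and 50.6 for old 2 and old 3, and -41.3 to -35.7 in young). Without old 1, 5570 genes were called, so values without it are given below. Mitochondrial transcripts took 25.1 to 26.8% of reads in young and 18.4 to 27.6% in old libraries.

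Gja1 transcripts fell with age and the other members did not pass the test. Of the 5 members tested, 1 was called, lower in old hearts, where 6.36% of all tested genes were called lower. No member was called higher, where 8.72% of all tested genes were. At an unadjusted p under 0.05 in edgeR 0 of the 5 were higher (17.8% of all genes), and DESeq2 (10.7% of all genes) and limma-voom (7.6%) also called 0 higher. The plot of connexin levels by age shows the drop of Gja1 and the closer spacing of the other genes.

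**Figure D1:**
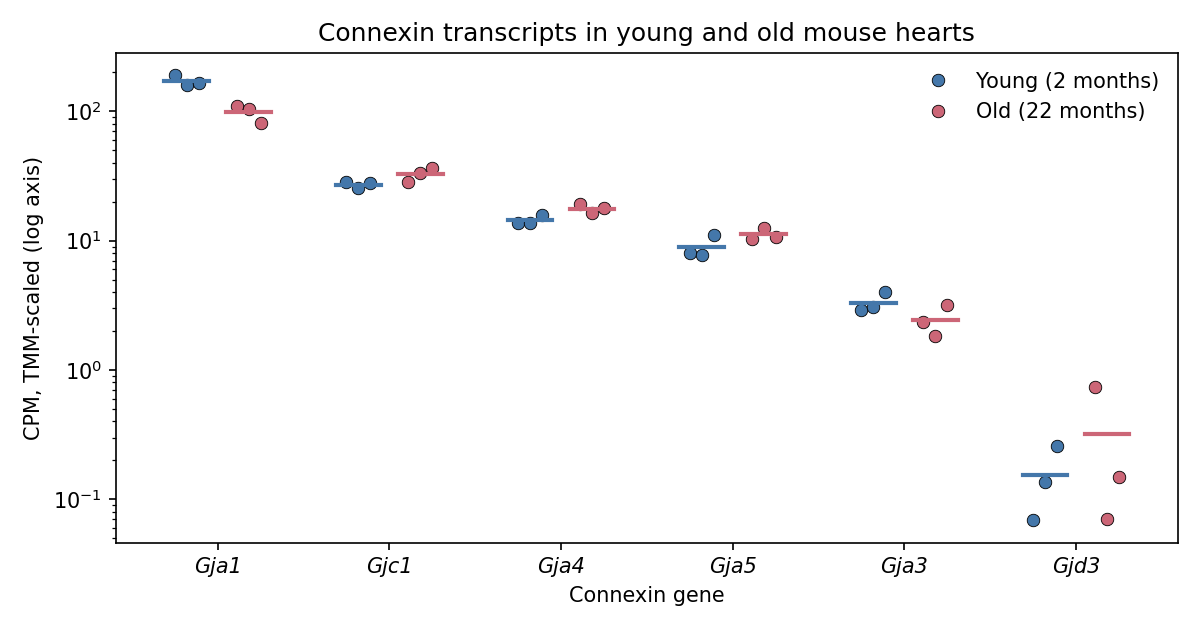
CPM of each connexin gene (log axis) in the 3 young and 3 old libraries, with a point per library and a bar at the group mean. The old points of Gja1 lie below all young points (81.0 to 110 against 161 to 190 CPM), and those of Gjd3 rest on 1 to 12 reads.

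Gja1, which encodes the main gap junction protein of ventricular muscle, was read at 190, 161 and 167 CPM in young 1, 2 and 3 and at 110, 104 and 81.0 CPM in old 1, 2 and 3. Every old library lay below every young library, as was the case for 18.4% of all tested genes, and old 3 was lowest. The mean was 173 ± 15.3 CPM in young and 98.5 ± 15.4 CPM in old hearts (SD, n = 3 each), from 1092 to 2768 reads per library. The log2 fold change was -0.81 ± 0.15 (SE, 95% interval -1.15 to -0.47), a level that fell by 43.0%, with an edgeR adjusted p of 0.0103. The call ended without young 1, at a log2 fold change of -0.74 and an edgeR adjusted p of 0.0613. Without old 1 the log2 fold change was -0.90 and the edgeR adjusted p 0.000832. On the authors' FPKM (reads scaled to gene length and depth), Gja1 stood at 53.4 ± 4.85 in young and 30.3 ± 4.68 in old hearts. In a whole heart, fewer cells of a type and less RNA per cell cannot be told apart.

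The Gja1 gene lies at chr10:56377330-56402513 on the plus strand (GRCm38, GENCODE M21). Its promoter window and that of Gja5 are shown because Gja1 was the connexin called and Gja5 the conduction and arterial connexin measured beside it, and because factors with recognition sequences searched here are among the regulators described further on. The windows run from 250 bases before to 50 bases after the RefSeq start site (GRCm38.p6), chr10:56377050-56377349 for Gja1 and chr3:97032152-97032451 for Gja5, both on the plus strand, 5′ to 3′, with motif matches in capitals.

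Gja1: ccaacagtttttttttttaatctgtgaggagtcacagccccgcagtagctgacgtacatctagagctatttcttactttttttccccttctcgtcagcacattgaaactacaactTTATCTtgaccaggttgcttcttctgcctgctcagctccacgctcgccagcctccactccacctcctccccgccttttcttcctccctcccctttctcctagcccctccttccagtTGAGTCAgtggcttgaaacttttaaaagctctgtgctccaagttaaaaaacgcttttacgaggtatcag

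Gja5: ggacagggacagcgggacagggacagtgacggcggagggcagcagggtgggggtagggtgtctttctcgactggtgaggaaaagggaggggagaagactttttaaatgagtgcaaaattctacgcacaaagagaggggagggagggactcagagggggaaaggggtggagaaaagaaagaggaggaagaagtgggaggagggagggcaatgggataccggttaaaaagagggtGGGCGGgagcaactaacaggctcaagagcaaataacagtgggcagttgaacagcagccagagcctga

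Motifs for 5 kinds of factor were searched on both strands, and the matches are descriptions of letters and not of bound sites. In Gja1 the capitals mark TTATCT, the reverse complement of the GATA motif AGATAA, whose first base is at -135, and TGAGTCA, an AP-1 motif (TGANTCA), whose first base is at -19. In Gja5 they mark a GC box (GGGCGG) at -17. Among 32851 windows of 300 bases, 11.2% hold the GATA motif, 7.81% the AP-1 motif and 35.7% the GC box. An NKX2 motif (TNAAGTG, 11.5% of windows) and a T-box core (GGTGTG, 19% of windows) had no match in the windows of Gja1, Gja3, Gja4 or Gja5, which says only that these letters are not there. GC content was 47.7% in the Gja1 window and 55.7% in that of Gja5. RefSeq windows were found for 4 of the 6 members.

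Gja4, which encodes an arterial endothelial connexin, was read at 13.6, 13.8 and 15.8 CPM in young and at 19.1, 16.2 and 17.8 CPM in old 1, 2 and 3. All old libraries lay above all young ones, as was the case for 18.8% of all tested genes. The means were 14.4 ± 1.20 and 17.7 ± 1.44 CPM (SD, n = 3 each). The log2 fold change was 0.30 ± 0.15 (SE, 95% interval -0.03 to 0.63) and did not pass the edgeR test (adjusted p 0.184). Without old 1 it was 0.24 (edgeR adjusted p 0.197). The gene lies at chr4:127311421-127314039 on the minus strand.

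Gja5, the connexin of atrial muscle, fast conduction tissue and arterial endothelium, was read at 7.97, 7.80 and 11.1 CPM in young and at 10.4, 12.5 and 10.8 CPM in old hearts. Young 3 lay within the old range, so the groups overlapped. The log2 fold change was 0.32 ± 0.19 (SE, 95% interval -0.11 to 0.76), and the edgeR adjusted p was 0.280. Without old 1 it was 0.37 (edgeR adjusted p 0.159). The gene spans chr3:96904693-97077416 on the plus strand. The minus-strand gene Gpr89 (chr3:96868281-96905346), with 161 to 231 reads per library, overlaps only the start of that span, chr3:96904693-96905346. That stretch lies outside the promoter window shown above. The strand setting of the counting is not given in the sources used here, so reads within the shared stretch cannot be told apart.

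Gjc1, which encodes the connexin of nodal tissue, was read at 28.3, 25.4 and 27.7 CPM in young and at 28.4, 33.6 and 36.4 CPM in old 1, 2 and 3. Old 1 lay barely above young 1 on this scale and below it in FPKM (5.37 against 5.45), so the separation of the groups depends on the scaling. The log2 fold change was 0.27 ± 0.14 (SE, 95% interval -0.04 to 0.58) with an edgeR adjusted p of 0.202. Without old 1 it was 0.37 and passed the test (edgeR adjusted p 0.0232). The gene lies at chr11:102799579-102819700 on the minus strand.

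Gja3 was read at 2.89, 3.05 and 3.99 CPM in young and at 2.33, 1.84 and 3.19 CPM in old hearts, from 26 to 62 reads per library. Old 3 lay above young 1 and young 2, and the log2 fold change of -0.43 ± 0.30 (SE, 95% interval -1.10 to 0.23) did not pass the edgeR test (adjusted p 0.336). It lies at chr14:57034460-57058100 on the minus strand. Gjd3, at chr11:98982180-98983016 on the minus strand, had 1, 2 and 4 reads in young and 12, 1 and 2 in old libraries. It did not pass the filter and was not tested. The high old value came from old 1 alone, and no age difference was detectable at this depth.

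Gja1 made up a smaller share of connexin RNA in every old library than in any young library. In FPKM, at the gene lengths the authors used, the order was Gja1, Gja4, Gjc1, Gja5 and Gja3 in every one of the 6 libraries. In young hearts Gja4 stood at 8.19 ± 0.638 FPKM, Gjc1 at 5.20 ± 0.293, Gja5 at 2.71 ± 0.541 and Gja3 at 2.05 ± 0.357. Gja5 and Gja3 in young hearts were the neighbours whose library ranges overlapped. In old hearts the levels were 10.1 ± 0.730 FPKM for Gja4, 6.27 ± 0.818 for Gjc1, 3.38 ± 0.369 for Gja5 and 1.52 ± 0.419 for Gja3.

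Gja1 took 77.2, 74.6 and 72.0% of the summed FPKM of the 5 genes in young 1, 2 and 3 and 62.0, 60.9 and 52.8% in old 1, 2 and 3. The groups did not overlap, with means of 74.6 ± 2.61 and 58.6 ± 5.02% (SD, n = 3 each). The share of Gja4 was 11.5 ± 1.19% in young and 19.6 ± 1.95% in old, that of Gjc1 7.27 ± 0.141 and 12.3 ± 2.43%, and that of Gja5 3.79 ± 0.783 and 6.58 ± 0.774%. Old libraries lay above young ones for these 3 shares, and overlapped with them for Gja3 (2.88 ± 0.550 and 2.99 ± 1.05%). Shares sum to 100%, so a smaller Gja1 share by itself raises the others, and no test was run on them. Summed over the 5 genes, young hearts held 71.6 ± 4.71 FPKM and old hearts 51.5 ± 3.75. Without Gja1 the sums were 18.2 ± 1.62 and 21.2 ± 0.940 FPKM. The fall of the sum was smaller when reads per kilobase were taken over the joined GENCODE M21 exons of all 6 genes, at 33.7 ± 1.87 and 29.8 ± 1.24.

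**Figure D2:**
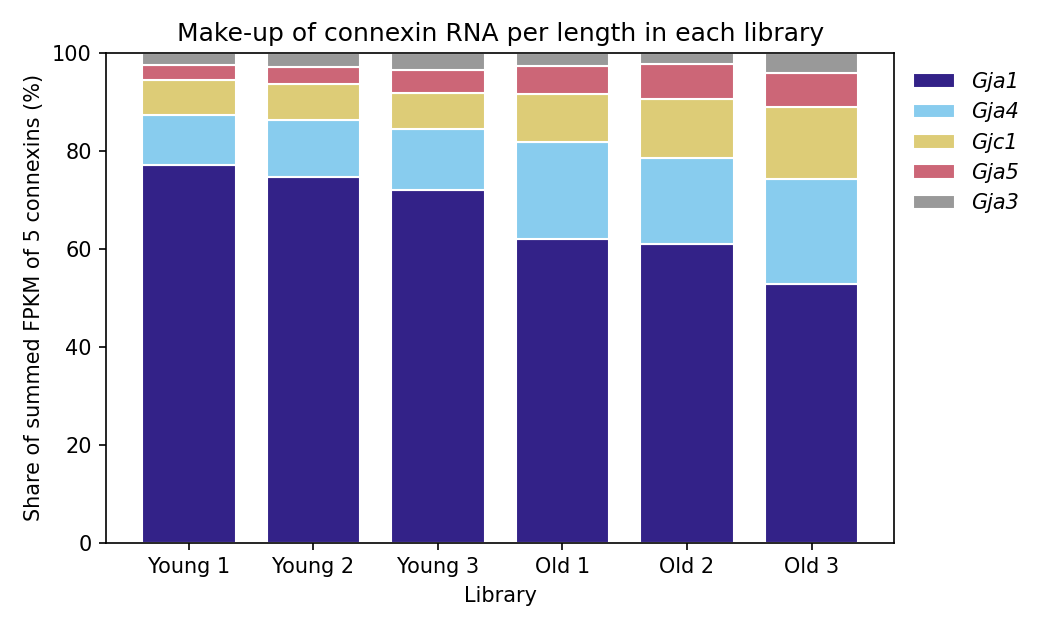
Share of each of 5 connexin genes in their summed FPKM (%) in each of the 6 libraries, as stacked bars that add to 100%. The Gja1 part is 72.0 to 77.2% in young libraries and 52.8 to 62.0% in old ones.

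The ratio of Gja1 to Gja4 in FPKM was 7.59, 6.36 and 5.75 in young and 3.13, 3.48 and 2.47 in old libraries. Gja1 over Gjc1 was 10.3 ± 0.558 and 4.95 ± 1.34, and Gja1 over Gja5 was 20.3 ± 4.52 and 9.02 ± 1.65 (SD, n = 3 each). These 3 ratios were lower in every old library than in any young one, whereas Gja1 over Gja3 overlapped (26.7 ± 5.99 and 21.5 ± 7.96). The levels depend on the length assumed for each gene. The deposited FPKM imply 3229 bases for Gja1, while all its exons in GENCODE M21 join to 10257 bases. Its longest single transcript there has 3889 bases, so the joined length exceeds any annotated Gja1 transcript and lowers the Gja1 level. For Gjc1 the FPKM imply 5203 bases, near its joined exons (5003) and above its longest transcript (3413), which lowers the Gjc1 level. For Gja3 they imply 1610 bases, below its longest transcript (2766). The order of Gja4 and Gjc1 and their shares thus depend on the length taken for Gjc1. With the GENCODE lengths and all 6 genes, Gja1 took 50.1% in young and 32.1% in old hearts and Gja4 25.4 and 35.2%, with Gja4 above Gja1 in old 1 and old 3 and below it in old 2.

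The genes whose profile over the 6 libraries lay nearest to that of Gja1, among 8748 genes with a mean of at least 10 CPM, were Myh6, Tbc1d16 and Isca1. Nearness was the root mean square difference of log2 CPM after removing each gene's mean, at 0.05, 0.05 and 0.06. Myh6, the alpha myosin heavy chain, stood at 22616 ± 1821 CPM in young and 13464 ± 1616 CPM in old hearts (log2 fold change -0.75 ± 0.15, edgeR adjusted p 0.0123). Its call ended without young 1, young 2 or young 3 (edgeR adjusted p 0.0512 to 0.0637), as did that of Isca1 (0.0541 to 0.0679). Tbc1d16 stood at 39.9 ± 1.54 and 22.1 ± 2.80 CPM, and Isca1 at 152 ± 7.75 and 87.3 ± 17.1 CPM. Per 1000 reads of Myh6, Gja1 had 7.70, 7.53 and 7.70 reads in young and 7.52, 7.39 and 6.97 in old libraries, a closeness that follows from choosing Myh6 by its profile. Other reference genes gave ratios whose direction depends on the reference gene's own age difference. Tnnt2 was named after its values were seen, and Actc1 for its small p. Per 1000 reads of Tnnt2, Gja1 had 23.3 ± 1.39 reads in young and 11.5 ± 1.74 in old hearts, with old libraries below young ones. The same held per 1000 reads of Tnni3 (33.3 ± 0.888 and 17.6 ± 5.20) and Myl2 (22.2 ± 0.366 and 8.53 ± 1.73). Per 1000 reads of Actc1, Gja1 had 31.5 ± 1.79 and 42.4 ± 2.73, with old libraries above young ones. For the endothelial gene Cdh5 the groups overlapped (489 ± 61.5 and 554 ± 92.1).

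**Figure D3:**
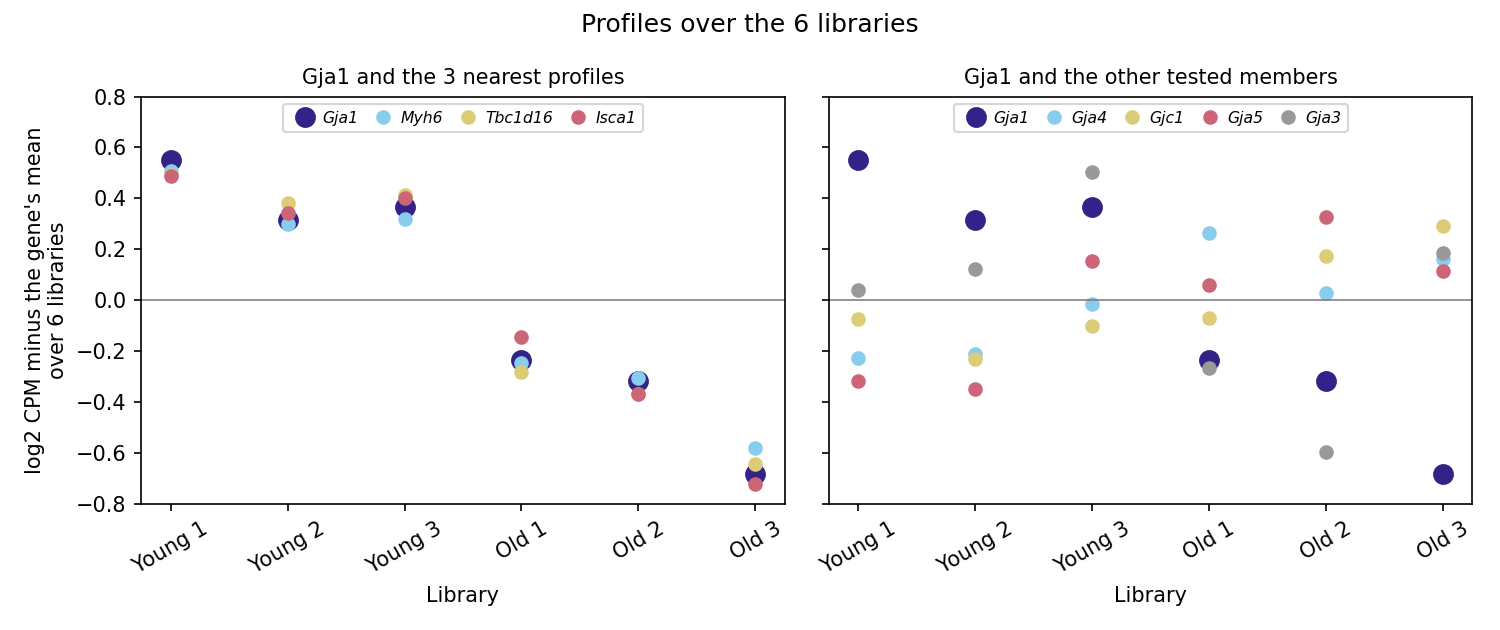
log2 CPM minus the gene's mean over the 6 libraries, for Gja1 and the 3 genes with the nearest profile (left) and for Gja1 and the other tested connexins (right). Gja1, Myh6, Tbc1d16 and Isca1 lie above 0 in young and below 0 in old libraries, while Gja4, Gjc1 and Gja5 do not follow them.

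Of 15 other connexin and pannexin genes listed, 7 had no read in any library and 2 were tested. Of these 2, 0 were called by edgeR, and 1 was higher at an unadjusted p under 0.05 (17.8% of all genes were). DESeq2 called 1 higher (10.7% of all genes) and limma-voom 0 (7.6%). That gene was Panx1, which encodes a large-pore membrane channel related to invertebrate gap junction proteins. Panx1 had 23, 27 and 29 reads in young and 105, 41 and 38 in old 1, 2 and 3. It stood at 1.76 ± 0.156 CPM in young and 4.05 ± 2.06 CPM in old hearts, with old 1 the highest. The log2 fold change was 1.21 ± 0.37 (edgeR adjusted p 0.0554). It was 0.70 without old 1, and DESeq2 gave an adjusted p of 0.0249. Panx2, another pannexin gene, had lower counts and a log2 fold change of 0.30 ± 0.32 (edgeR adjusted p 0.543).

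A list of 24 genes for proteins that bind connexins, anchor them in the intercalated disc or carry them there was tested in the same fit. This list was chosen with earlier results of these data known. Of these 24, 4 were called lower (16.7%, beside 6.36% of all genes) and 0 higher, with a median log2 fold change of 0.00 beside 0.02 over all genes. At an unadjusted p under 0.05, 7 were lower (14.6% of all genes were) and 5 higher (17.8% of all genes), so the higher count was near that of all genes. DESeq2 (8.04% of all genes lower) and limma-voom (6.38% lower) each called 4 lower and 0 higher. Jup, which encodes plakoglobin of the desmosome and adherens junction, was read at 269, 271 and 253 CPM in young and at 150, 164 and 139 CPM in old hearts. It fell by 0.81 on the log2 scale (SE 0.13, edgeR adjusted p 0.00544) and kept its call without each library in turn. Ctnnb1, which encodes beta-catenin, fell from 349 ± 8.14 to 169 ± 57.3 CPM (-1.05 ± 0.22, edgeR adjusted p 0.0141). Tjp1, which encodes ZO-1, a scaffold that binds the tail of Cx43, fell from 112 ± 10.3 to 82.1 ± 5.09 CPM (-0.45 ± 0.13, edgeR adjusted p 0.0455).

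Nedd4, a ubiquitin ligase that acts on Cx43, fell from 344 ± 8.60 to 243 ± 29.0 CPM (-0.50 ± 0.13, edgeR adjusted p 0.0367). Cdh2, the N-cadherin of the disc, stood at 77.8 ± 4.77 in young and 101 ± 15.5 CPM in old and did not pass the test (0.38 ± 0.14, edgeR adjusted p 0.104). Calls were lost with fewer libraries while the fold changes stayed close, and calls over all genes also dropped, from 2174 to between 539 and 619 without a young library. Ctnnb1 lost its call without young 1, young 2, young 3 or old 3 (log2 fold change -1.08 to -0.96, edgeR adjusted p 0.0535 to 0.0645). Nedd4 (-0.54 to -0.44, edgeR adjusted p 0.0787 to 0.148) and Tjp1 (-0.55 to -0.41, edgeR adjusted p 0.0765 to 0.183) lost theirs without any one library other than old 1. With all 6 libraries, a replicate block also ended the calls of Nedd4 (edgeR adjusted p 0.0681) and Tjp1 (0.0934), and limma on FPKM that of Tjp1 (0.0546 and 0.0553). Without old 1, 13 of the 24 were called, 7 lower and 6 higher, when 17.7% of all genes were called lower and 20.1% higher. The count was 1 without young 1, young 2, young 3 or old 3 and 2 without old 2.

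**Figure D4:**
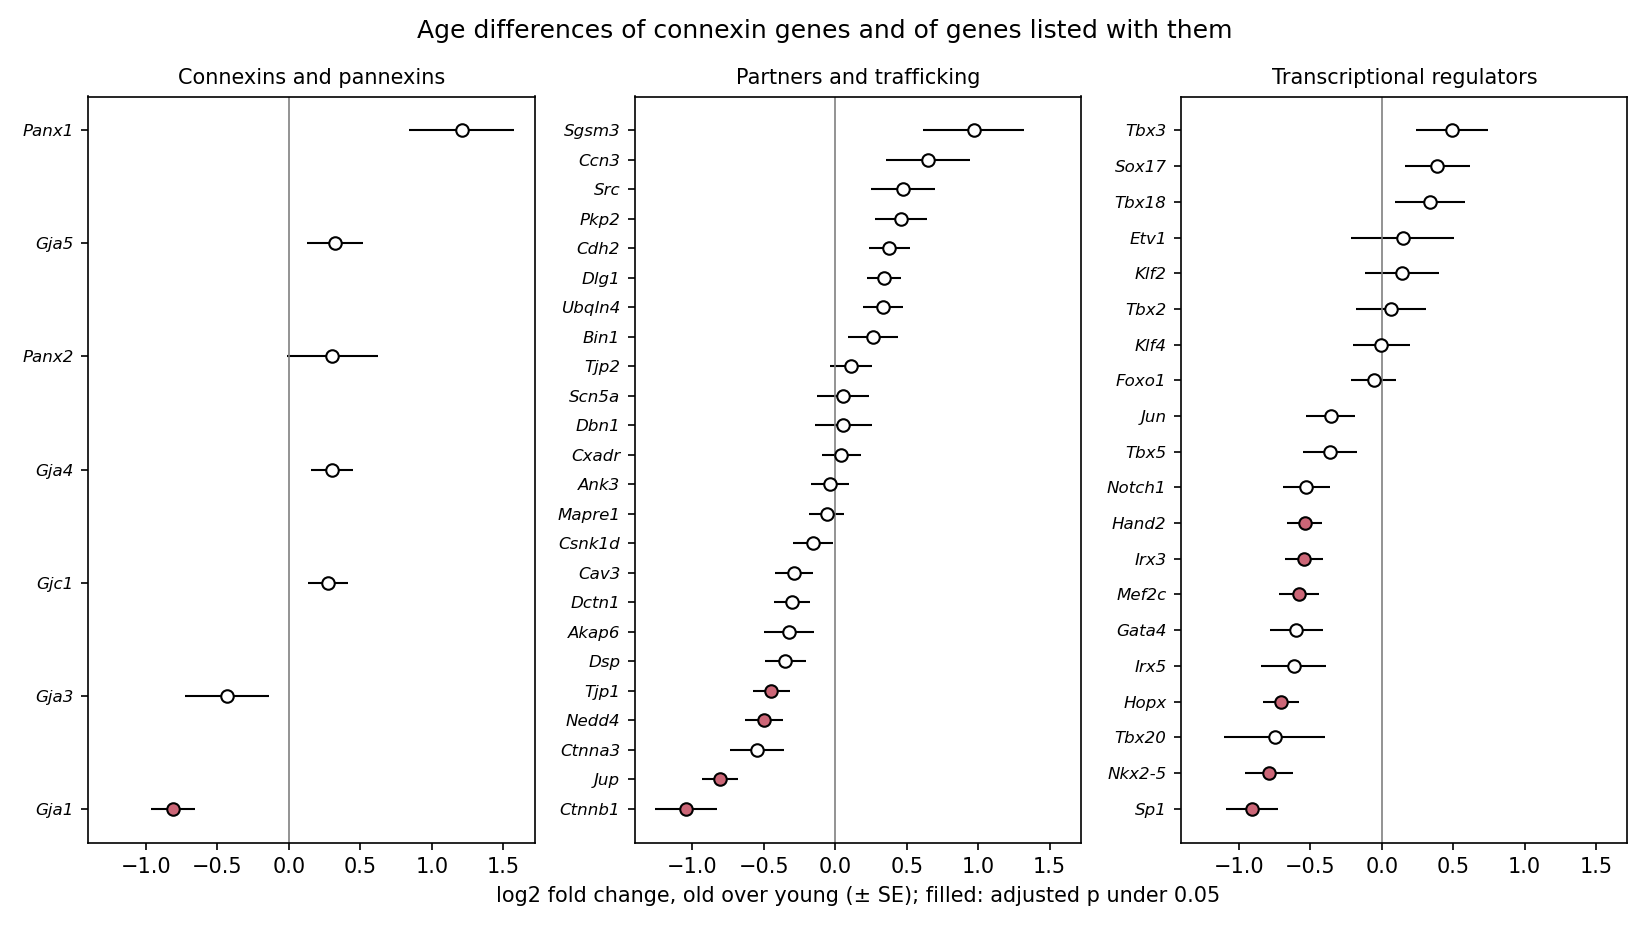
log2 fold change of old over young hearts (± SE) for tested connexins and pannexins, for partner and trafficking genes, and for transcriptional regulators, with filled points called at an adjusted p under 0.05. Gja1 is the filled point among connexins, and the 4 filled partners and 6 filled regulators all lie below 0.

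A list of 20 genes, chosen with earlier results of these data known, held transcription factors and related regulators known to act on connexin genes. Of these 20, 6 were called lower (30% of the list, beside 6.36% of all genes) and 0 higher, and the median log2 fold change was -0.44 beside 0.02 over all genes. At an unadjusted p under 0.05, 9 were lower and 0 higher (14.6 and 17.8% of all genes), and DESeq2 called 8 lower and 0 higher (8.04 and 10.7% of all genes). Limma-voom called 6 lower and 0 higher. Nkx2-5, a homeobox factor of cardiomyocytes, was read at 76.6, 70.7 and 64.6 CPM in young and at 35.6, 51.2 and 35.8 CPM in old hearts. It fell by 0.79 on the log2 scale (SE 0.17, edgeR adjusted p 0.0154). Hopx, a homeodomain cofactor whose loss in mice is known to alter Cx40, fell from 101 ± 2.77 to 61.7 ± 6.40 CPM (-0.71 ± 0.13, edgeR adjusted p 0.00858). Sp1, a factor that binds GC boxes, fell from 42.9 ± 0.708 to 22.8 ± 6.17 CPM (-0.91 ± 0.18, edgeR adjusted p 0.0129).

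Hand2, a basic helix-loop-helix factor of the heart, fell from 40.6 ± 2.82 to 28.0 ± 1.01 CPM (-0.54 ± 0.12, edgeR adjusted p 0.0208). The other called regulators were Irx3 (-0.54 ± 0.14) and Mef2c (-0.58 ± 0.14), named here after their values were seen. Tbx5, a T-box factor that acts on Gja5, stood at 17.7 ± 1.85 and 13.8 ± 3.10 CPM and did not pass the test (-0.36 ± 0.19, edgeR adjusted p 0.219). Gata4 (-0.60 ± 0.19, edgeR adjusted p 0.0602) and Jun (-0.36 ± 0.17, edgeR adjusted p 0.184) did not pass either. They were named after their values were seen, as factors for the GATA and AP-1 motifs matched in the Gja1 window. Here too calls were lost with fewer libraries at similar fold changes. Hopx lost its call without young 1 (log2 fold change -0.70, edgeR adjusted p 0.0532), and Nkx2-5 without young 1, young 2 or old 3 (-0.79 to -0.70, edgeR adjusted p 0.0654 to 0.0781). Sp1 (-0.92 to -0.78, edgeR adjusted p 0.0511 to 0.0587) and Hand2 (-0.60 to -0.51, edgeR adjusted p 0.0525 to 0.104) lost theirs without young 1, young 2, young 3 or old 3. Irx3 (-0.61 to -0.48, edgeR adjusted p 0.0541 to 0.131) and Mef2c (-0.65 to -0.51, edgeR adjusted p 0.0598 to 0.120) lost theirs without any one library other than old 1. Irx3 also lost its call with the replicate block (edgeR adjusted p 0.0504). The count was 0 without young 1, 1 without young 2, 2 without young 3, 5 without old 2 and 1 without old 3. Without old 1 it was 13, with 11 lower and 2 higher, when 17.7% of all genes were called lower and 20.1% higher.

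Markers of the cells that carry these connexins also differed between the ages, and their part in the connexin results was not tested. No marker of the 11 lists was without reads in all 6 libraries. The counts of each list stand beside 6.36% of all tested genes called lower and 8.72% called higher. The summed level of 8 pan-cardiomyocyte markers was 48101 to 53938 CPM in young and 36486 to 39915 CPM in old hearts, and 3 of the 8 were called lower (37.5%). Actc1, the cardiac actin gene, fell from 5481 ± 181 to 2330 ± 415 CPM. Myh6, chosen above for its nearness to Gja1, was another of them and fell from 22616 ± 1821 to 13464 ± 1616 CPM. The fall of the sum lies in Myh6 and Actc1, and the other markers together did not fall. Of the 8 markers, 5 were not called, and 4 had log2 fold changes above 0. Among those 4, Tnnt2 stood at 7414 ± 275 CPM in young and 8541 ± 63.2 CPM in old hearts (log2 fold change 0.20 ± 0.12, edgeR adjusted p 0.284). Of 6 ventricular markers 2 were called higher (33.3%) and 3 had log2 fold changes below 0, and their sum was 14376 to 16343 CPM in young and 18300 to 20632 CPM in old hearts. Myl2, the ventricular light chain, rose from 7800 ± 660 to 11666 ± 1589 CPM. Myh7, the beta myosin heavy chain, rose from 734 ± 42.0 to 1698 ± 755 CPM. The call of Myl2 ended without any one library other than old 1 (edgeR adjusted p 0.0575 to 0.151) and with the replicate block (0.0626). Limma on log2(FPKM + 0.1) did not call Myl2 either. The call of Myh7 ended without young 1, young 2 or young 3 (edgeR adjusted p 0.0740 to 0.0855). Cardiomyocyte markers were thus called in both directions while Gja1 fell.

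Of 11 pan-endothelial markers 3 were called lower (27.3%) and 10 had log2 fold changes below 0, and the sum was 1836 to 1986 CPM in young and 1364 to 1606 CPM in old hearts. Cdh5, the endothelial cadherin, fell from 355 ± 21.6 to 178 ± 1.93 CPM, while Gja4 in the same hearts was not called. Pecam1 fell from 275 ± 25.2 to 183 ± 35.0 CPM, a call that ended without any one library other than old 1 (edgeR adjusted p 0.0926 to 0.166) and with the replicate block (0.0597). Of 11 arterial endothelial markers tested 3 were called lower (27.3%), 6 had log2 fold changes above 0 and the median was 0.16, with sums of 343 to 377 CPM in young and 305 to 412 CPM in old. These included Efnb2 (log2 fold change -0.74 ± 0.14) and Unc5b (-0.73 ± 0.15), whose calls ended without young 1 for Efnb2 (edgeR adjusted p 0.0610) and without any one young library for Unc5b (0.0658 to 0.0721). Hey1, a Notch target named after its values were seen, stood at 17.9 ± 0.684 CPM in young and 27.7 ± 7.08 CPM in old hearts, with all old libraries above the young ones (0.63 ± 0.19, edgeR adjusted p 0.0522). DESeq2 called Hey1 higher (adjusted p 0.0307), and so did edgeR without old 1 (0.80, adjusted p 0.00120). Atrial markers summed to 155 to 236 CPM in young and 160 to 448 CPM in old, highest in old 1. Of 9 tested, 1 was called higher (11.1%, Stard10, log2 fold change 1.20 ± 0.18), with 5 log2 fold changes above 0 and 4 below. Sln had the next smallest p (edgeR adjusted p 0.109) and varied widely between libraries. It was read at 0.137, 2.92 and 0.257 CPM in young and 23.0, 0.567 and 4.08 CPM in old 1, 2 and 3. Myl7, named after its values were seen, was at 0.137, 13.8 and 1.93 CPM in young and 54.0, 2.06 and 9.57 CPM in old. Gja5 in old 1 was the lowest of the old libraries. Of 10 conduction system markers tested 0 were called by edgeR, with sums of 150 to 216 CPM in young and 110 to 239 CPM in old. An unadjusted p under 0.05 also gave 0 (14.6% of all genes lower, 17.8% higher), as did DESeq2 (8.04% lower, 10.7% higher).

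For other cells, smooth muscle and pericyte markers summed to 1414 to 1681 CPM in young and 1021 to 1440 CPM in old (2 of 12, or 16.7%, called lower, Abcc9 and Kcnj8). The contractile genes of that list were not called. Of the 12 markers, 4 had log2 fold changes above 0 and 8 below. Those above included Tagln (1.04 ± 0.45, edgeR adjusted p 0.147) and Cnn1 (1.42 ± 0.53, edgeR adjusted p 0.0956), both named after their values were seen. Among those below was Smtn (-0.56 ± 0.22, edgeR adjusted p 0.105), with all old libraries below the young ones. Tagln passed the test without old 1 (1.32, edgeR adjusted p 0.0290) and Cnn1 without young 3 (2.33, edgeR adjusted p 0.0271). Both also passed with the replicate block (edgeR adjusted p 0.00562 for Tagln and 0.0156 for Cnn1) and with no filter on low counts (0.0137 and 0.00601). Neither passed in any other setting with all 6 libraries. Fibroblast markers summed to 949 to 1410 and 610 to 1432 CPM (2 of 9, or 22.2%, called lower, Col1a1 and Col3a1). Of these 9, 6 had log2 fold changes below 0 and 3 above. Leukocyte markers summed to 219 to 267 and 244 to 444 CPM (2 of 7, or 28.6%, called higher, Ptprc and S100a8). Of these 7, 5 had log2 fold changes above 0 and 2 below. S100a8 rested on 3 to 58 reads per library. The highest leukocyte sum was in old 1, where Lyz2 stood at 345 CPM (146 to 188 in young, 179 in old 2 and 145 in old 3). Schwann cell and nerve markers summed to 21.5 to 28.6 and 25.0 to 56.7 CPM, with 0 of 5 called by edgeR. Of these 5, 2 were higher at an unadjusted p under 0.05 (17.8% of all genes) and 1 by DESeq2 (10.7% of all genes). Adipocyte and blood markers summed to 785 to 822 and 395 to 1054 CPM (1 of 4, or 25%, called lower, Alas2). Nearly all of this sum came from the haemoglobin genes Hba-a1 and Hbb-bs, so it says little about adipocytes. The calls of Abcc9, Kcnj8, Col1a1, Col3a1 and Alas2 ended without young 2 or young 3, those of Abcc9, Kcnj8 and Alas2 without young 1, those of Abcc9, Kcnj8, Col1a1 and Col3a1 without old 3, and those of Col3a1 and Alas2 without old 2 (edgeR adjusted p 0.0511 to 0.132 in these fits). With all 6 libraries, limma on FPKM did not call Col3a1, and on log2(FPKM + 0.1) it did not call Alas2. The calls of Ptprc and S100a8 held without each library in turn.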

How the data were processed

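RNA of mouse hearts, in 3 young and 3 old libraries, was analysed from gene tables. Per the submitters' processing notes, the authors used HISAT2 and featureCounts of Subread with GRCm38.p6, and they deposited whole-number read counts per gene. The authors also deposited FPKM for 13170 genes, which lack Gjd3. Within each library FPKM were proportional to counts for a given gene, but their implied totals differed from the count totals, most for old 1. The sources used here do not give versions, the gene annotation or the handling of strand and multi-mapped reads. The 571 unnamed models (0.295 to 0.368% of reads) were left out.

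In R 4.3.3, edgeR 4.0.16 was run on counts with filterByExpr, TMM and quasi-likelihood tests, with Benjamini-Hochberg adjustment over all 14413 tested genes at 0.05. An SE is the log2 fold change over the root of its F. Alternatives were other scalings and filters, DESeq2 1.42.0, limma 3.58.1 (voom, and trend on FPKM), a replicate block and leaving out each library. The code was tested on simulated data.

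The 6 members, the lists and the tests were chosen with earlier results of these data known. Named were all members, every tested gene of the other connexins and pannexins listed, the 4 smallest p-values of the partner and regulator lists, Tjp1, Cdh2, Tbx5 and Nkx2-5, the 2 smallest p-values of each marker list where called, and the 3 genes nearest to Gja1. Some other genes of the family are not reported here. Markers of 11 cell types were summed. Nov was read as Ccn3 and Emr1 as Adgre1 by identifier. Myh6, Tnnt2, Tnni3, Actc1, Myl2 and Cdh5 were used as reference levels, with Tnnt2 named after its values were seen.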

Additional observations from a re-analysis of the deposited data

How the results depend on the processing

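Gja1 kept its direction and its call under the 9 other settings that used all 6 libraries (log2 fold change -0.85 to -0.81, adjusted p 5.42e-05 to 0.0171). Leaving out each library gave -0.90 to -0.69 (edgeR adjusted p 0.000832 to 0.0613), and the call ended without young 1. The number of members called was 1 and ranged from 0 to 2 when a library was left out. It ranged from 1 to 13 for the partners (4 with all libraries), 0 to 13 for the regulators (6) and 539 to 5570 for all genes (2174), and the cause was not tested. Of the other connexins and pannexins, 1 was called higher with no filter and 1 with DESeq2, against 0. Over all genes, 1675 of 23978 were called higher with no filter and 10.7% with DESeq2.

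Deviations of same-numbered libraries from their age means correlated at -0.0846, -0.0679 and 0.0247. Those of differently numbered libraries correlated at -0.0922 to 0.141, so the same-numbered ones did not stand apart. These values cannot show whether samples were handled in pairs. With the replicate block, 1 member, 2 partners, 6 regulators and 1774 genes were called.

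With GENCODE M21 exon lengths the share of Gja1 was 50.1% in young and 32.1% in old hearts, that of Gja4 25.4 and 35.2%, that of Gjc1 16.1 and 22.1%, and that of Gja5 4.61 and 6.55%. These shares use joined exons (10257 bases for Gja1, whose longest transcript has 3889) and also add Gjd3 (0.545% in young, 1.24% in old). Depth limits Gjd3, with at most 12 reads, and Gja3, with at most 62.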
